A study of Mus musculus with 6 samples.

Results

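A list of 34 genes that mark T cells, NK cells and intraepithelial lymphocytes was followed here in the RNA of colon epithelium, out of 52550 genes listed for each sample. The genes were chosen by name, as chains of the T cell receptor, coreceptors and signalling proteins, innate-type receptors, cytotoxic and secreted effectors, homing and cytokine receptors, and 1 transcription factor. Intraepithelial lymphocytes are T cells and related innate cells that live between the epithelial cells of the gut. Many carry a γδ T cell receptor or the αα form of CD8, hold on to the epithelium through the integrin αEβ7, which binds E-cadherin, and carry receptors and granzymes that they share with natural killer (NK) cells. They are known for surveying the epithelial barrier, for killing damaged cells and for releasing cytokines.

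The samples came from *Zfp90* fl/fl mice (n = 3) and *Zfp90* ΔIEC mice (n = 3), all male C57BL/6 mice that were 6 to 8 weeks old by the labels and were treated with AOM-DSS, that is, 1 injection of the carcinogen azoxymethane at 10 mg/kg and then 3 rounds of drinking water with 2% dextran sulfate sodium for 7 days and without it for 14 days. The mice were killed on day 80. Age and dose are those of the labels, and the paper's methods give a higher concentration of dextran sulfate sodium. In the *Zfp90* ΔIEC mice a Cre recombinase driven by the Villin promoter deletes the last part of *Zfp90* in intestinal epithelial cells and not in lymphocytes, and the *Zfp90* fl/fl littermates carry the floxed gene without Cre. The comparison asks how loss of this epithelial gene changes the transcriptome of the treated colon. The mice were housed by genotype after weaning, so the effects of cage and of genotype cannot be told apart. Epithelium was loosened with EDTA and DTT and no sort is described, so lymphocytes that lie in it can stay in the preparation. No label says outright that each sample is a separate mouse, and p-values therefore measure the spread between these samples.

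*Zfp90* itself lay between 0.490 and 0.630 FPKM (fragments per kilobase of transcript, scaled to sequencing depth) in the *Zfp90* fl/fl samples. It lay between 0.0846 and 0.195 FPKM across the *Zfp90* ΔIEC samples. This follows the grouping by sample title. The depth, estimated from the steps between low values, was 25.7 to 28.6 M fragments per sample. Correlations across genes between samples were 0.986 to 0.993, and 0 of 10 genes that all cells use was listed at 0. The epithelial label held, since *Epcam*, an epithelial marker named after its values were seen, lay between 554 and 608 FPKM in all 6 samples. The lymphocyte genes lay far below that. Single values ran from 0 to 6.06 FPKM, and 21 of the 34 genes stayed under 1 FPKM in every sample. Of the defining T cell markers, the CD3 and receptor chains were above 0 in every sample, whereas *Cd4* (at most 0.0865 FPKM) and *Cd8b1* (at most 0.0494 FPKM) were close to 0. In the *Zfp90* fl/fl mice, *Cd8b1*, the β chain of CD8, averaged 0.0287 ± 0.00631 FPKM against 0.452 ± 0.209 FPKM for the α chain gene *Cd8a* (SD, n = 3 each), both per length.

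In the *Zfp90* ΔIEC mice, all 34 genes had a lower mean FPKM, against 56% of all genes tested. In the sum over the 34 genes the *Zfp90* fl/fl samples reached 30.3, 21.4 and 43.1 FPKM in replicates 1, 2 and 3, and the *Zfp90* ΔIEC samples 15.1, 16.01 and 21.2 FPKM. The highest *Zfp90* ΔIEC sample thus lay just under the lowest *Zfp90* fl/fl sample, and the mean went from 31.6 ± 10.9 to 17.4 ± 3.26 FPKM (SD, n = 3 each), or to 55.2%. In bulk RNA, fewer lymphocytes and less RNA per lymphocyte cannot be told apart. Of the 34 genes, 15 had no overlap between the genotypes with the *Zfp90* ΔIEC samples lower, where 11.9% of all genes tested did so, and 0 had none with the *Zfp90* ΔIEC samples higher, where 8.05% of all genes did.

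In limma on log2(FPKM + 1), a scale that understates the change of genes with low values, 17013 genes with a mean of at least 0.1 FPKM were tested, 31 of the 34 among them. *Cd4*, *Cd8b1* and *Ccr9* lay below this filter. Of the list, 1 gene, *Il17a*, passed an adjusted p of 0.05 and was lower, where 0.129% of all genes tested were called lower and 0.047% higher. At an unadjusted p under 0.05, 17 of the 31 were lower, where 7.59% of all genes were, and 13.3% of all genes had such a p in either direction. The counts of each subgroup are to be read against these shares. The median log2 fold change was -0.31 over the 31 genes and -0.02 over all genes tested, and -0.27 over all 34 when no filter was used. The genes were picked with earlier results of these data known, so these counts describe the list and do not test it.

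The samples of a genotype were not alike. Among the *Zfp90* fl/fl samples, replicate 2 was the lowest for 28 of the 34 genes and replicate 3 the highest for 24. Among the *Zfp90* ΔIEC samples, replicate 1 was the lowest for 22 genes and replicate 3 the highest for 22. Without *Zfp90* fl/fl replicate 2, 25 genes had no overlap in place of 15, in a comparison in which fewer samples have to be separate and the share over all genes tested was 16.8% in place of 11.9%.

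**Figure D1:**
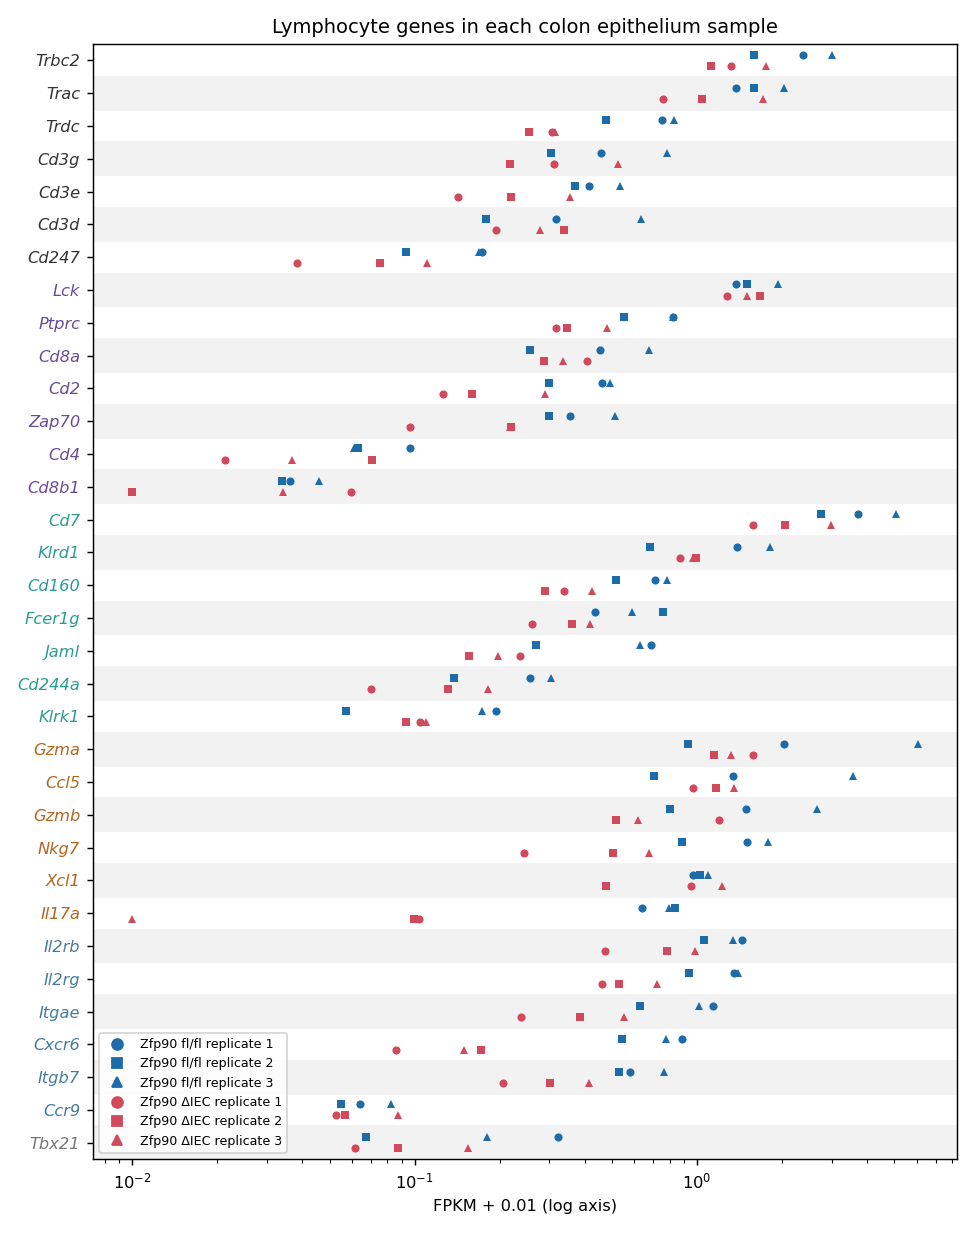
FPKM of each of the 34 lymphocyte genes in each of the 6 samples, on a log axis after adding 0.01 FPKM so that values of 0 can be drawn; colours of the gene names mark the subgroups, from receptor chains at the top to the transcription factor at the bottom. Blue *Zfp90* fl/fl points lie to the right of all red *Zfp90* ΔIEC points for 15 genes, with the widest gaps for *Il17a* and *Cxcr6*, and the colours mix for genes such as *Lck*, *Xcl1* and *Ccl5*.

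The antigen receptor of a T cell is a pair of variable chains, either α with β or γ with δ, which signals through the CD3 chains. Of the 7 genes of this subgroup, 0 passed the threshold in limma and 3 had an unadjusted p under 0.05. *Trdc*, the constant part of the δ chain (ENSMUSG00000104876, GRCm38 chromosome 14, 54142851 to 54148868, plus strand), lay at 0.744, 0.468 and 0.822 FPKM in *Zfp90* fl/fl replicates 1 to 3, against 0.298, 0.243 and 0.306 FPKM for replicates 1 to 3 of the *Zfp90* ΔIEC mice. The genotypes were separate, and the 3 *Zfp90* ΔIEC values were close together. The log2 fold change, with its standard error, was -0.38 ± 0.0918, and limma with the Benjamini-Hochberg method gave an adjusted p of 0.159. Estimated fragments of its single transcript summed to 214 and 91, which puts the *Zfp90* ΔIEC level at 41.6% of the *Zfp90* fl/fl level, with a 95% interval of 32.2% to 53.4% that covers counting error only.

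The αβ chains of the list did not separate the genotypes. *Trbc2*, a constant part of the β chain (chromosome 6, 41546730 to 41548352), was at 2.36, 1.58 and 2.99 FPKM in the *Zfp90* fl/fl samples and at 1.31, 1.11 and 1.74 FPKM across the *Zfp90* ΔIEC samples. The highest *Zfp90* ΔIEC sample lay above the lowest *Zfp90* fl/fl sample, and the log2 fold change of -0.46 had an adjusted p of 0.333 (limma). *Trac*, the constant part of the α chain, was at 1.37, 1.58 and 2.03 FPKM against 0.750, 1.03 and 1.70 FPKM, again with overlap. *Trbc1*, the other constant part of the β chain, is outside the list and was named after its values were seen. It was at 1.90, 1.27 and 2.02 FPKM against 0.657, 1.07 and 1.24 FPKM, without overlap. Its log2 fold change was -0.46 (adjusted p = 0.277 from limma). The sum of both β genes was at 4.27, 2.85 and 5.02 FPKM against 1.97, 2.18 and 2.98 FPKM. These overlapped, at 58.7% in the means. The δ and β chains were not tested against each other.

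Among the CD3 chains, which carry the signal of every T cell receptor, *Cd3e* was the 1 without overlap. It was at 0.403, 0.359 and 0.522 FPKM in the *Zfp90* fl/fl samples and at 0.133, 0.210 and 0.347 FPKM across the *Zfp90* ΔIEC samples, a log2 fold change of -0.22 (adjusted p = 0.341 from limma). *Cd3g* ran from 0.293 to 0.774 FPKM in the *Zfp90* fl/fl samples and from 0.208 to 0.515 FPKM across the *Zfp90* ΔIEC samples. For *Cd3d* the ranges were 0.169 to 0.621 FPKM and 0.184 to 0.328 FPKM, and for *Cd247*, the ζ chain, they were 0.0830 to 0.164 FPKM and 0.0284 to 0.101 FPKM. All 3 overlapped. The summed CD3 chains were at 1.43 ± 0.594 FPKM in the *Zfp90* fl/fl mice and 0.896 ± 0.301 FPKM across the *Zfp90* ΔIEC mice (SD, n = 3 each), a difference smaller than the SD of the *Zfp90* fl/fl samples. *Cd247* shares exon positions with *Pou2f1* on the opposite strand, which was at 1.55 and 1.62 FPKM in the means, and whether the counting used the strand is not given in the sources used here.

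Coreceptors and kinases carry the signal on. Of these 7 genes 5 were tested, of which 0 passed the threshold in limma and 3 had an unadjusted p under 0.05. *Ptprc* (CD45), the phosphatase found on all leukocytes, lay at 0.811, 0.540 and 0.812 FPKM in the *Zfp90* fl/fl samples and at 0.306, 0.336 and 0.470 FPKM across the *Zfp90* ΔIEC samples. *Zap70*, the kinase that docks on the CD3 chains, was at 0.344, 0.290 and 0.504 FPKM against 0.0863, 0.210 and 0.208 FPKM. *Cd2*, an adhesion receptor of T and NK cells, was at 0.453, 0.290 and 0.483 FPKM against 0.116, 0.150 and 0.281 FPKM. In all 3 the genotypes were separate, for *Cd2* by the smallest gap, and their adjusted p in limma was 0.205, 0.291 and 0.278. *Cd8a* lay at 0.444, 0.247 and 0.666 FPKM and at 0.399, 0.278 and 0.326 FPKM, with overlap. *Cd4* lay between 0.0508 and 0.0865 FPKM and between 0.0114 and 0.0605 FPKM, and *Cd8b1* between 0.0240 and 0.0359 FPKM and between 0 and 0.0494 FPKM, levels of few fragments. At an estimated 2.0 fragments or fewer per sample, no difference in *Cd8b1* was detectable at this depth.

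*Lck*, the kinase that starts T cell receptor signalling (ENSMUSG00000000409, chromosome 4, 129548344 to 129573641, minus strand), was at 1.36, 1.49 and 1.93 FPKM in the *Zfp90* fl/fl samples and at 1.26, 1.66 and 1.49 FPKM across the *Zfp90* ΔIEC samples. The samples of the genotypes were mixed. Its log2 fold change was -0.07 with a 95% interval of -0.32 to 0.19 (adjusted p = 0.835 from limma), and 0.02 without *Zfp90* fl/fl replicate 3. In the order of mean FPKM among the 34 genes, *Lck* was number 7 in the *Zfp90* fl/fl mice and number 2 in the *Zfp90* ΔIEC mice.

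*Lck* is known to be transcribed from a distal and a proximal promoter, and RefSeq gives 2 start sites. Promoter letters are shown for *Lck*, whose samples mixed, and later for *Il17a* and *Cxcr6*, whose mean FPKM differed most in proportion. Each run is the 250 bases before a RefSeq start site of build GRCm38.p6, written along the gene's strand. Capitals mark 4 short motifs searched on both strands: TGTGGT, bound by RUNX factors, GGAAGT, bound by ETS factors, GGTGTG, bound by T-box factors, and AGGTCA, the half-site of nuclear receptors such as RORγt. The window before the upstream start of *Lck*, chr4:129573642-129573891 on the minus strand, held TGTGGT and GGAAGT, and the other, chr4:129558373-129558622 on the minus strand, held GGAAGT:
Lck upstream start: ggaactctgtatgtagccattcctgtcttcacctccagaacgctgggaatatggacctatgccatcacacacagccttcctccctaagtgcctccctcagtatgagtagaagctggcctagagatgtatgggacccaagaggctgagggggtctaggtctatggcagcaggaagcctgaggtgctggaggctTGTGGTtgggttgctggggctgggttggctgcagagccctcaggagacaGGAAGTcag
Lck downstream start: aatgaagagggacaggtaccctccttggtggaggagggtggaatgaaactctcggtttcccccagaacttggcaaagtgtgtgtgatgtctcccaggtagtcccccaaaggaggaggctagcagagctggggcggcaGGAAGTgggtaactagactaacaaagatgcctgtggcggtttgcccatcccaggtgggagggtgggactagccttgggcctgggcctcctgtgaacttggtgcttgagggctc
Of the 34 genes, 23 matched the RefSeq table, with 28 windows. TGTGGT was in 13 of the 28 windows (46.4%) and in 14% of 32851 windows of all genes, GGAAGT in 11 (39.3%) and in 19.7%, GGTGTG in 9 (32.1%) and in 16.3%, and AGGTCA in 3 (10.7%) and in 14%. TGTGGT and GGTGTG can overlap each other. Such matches are descriptions of the letters, and windows of a gene with several start sites are not independent.

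Receptors that T cells share with NK cells made up a further subgroup of 7 genes, of which 0 passed the threshold in limma and 4 had an unadjusted p under 0.05. *Cd7*, an immunoglobulin-family receptor of T and NK cells, had the highest mean of all 34 genes in both genotypes. It was at 3.70, 2.73 and 5.06 FPKM in the *Zfp90* fl/fl samples and at 1.58, 2.04 and 2.97 FPKM across the *Zfp90* ΔIEC samples, with the highest *Zfp90* ΔIEC sample above *Zfp90* fl/fl replicate 2. The log2 fold change was -0.59 (adjusted p = 0.314 from limma). An antisense gene, *Gm11775*, overlaps its exons and was at 0.935 and 1.16 FPKM in the means.

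*Cd160*, a receptor for HVEM that marks intraepithelial lymphocytes, was at 0.699, 0.505 and 0.776 FPKM in the *Zfp90* fl/fl samples and at 0.327, 0.280 and 0.415 FPKM across the *Zfp90* ΔIEC samples. *Jaml*, a junctional adhesion molecule that costimulates γδ T cells, was at 0.675, 0.258 and 0.620 FPKM against 0.227, 0.146 and 0.187 FPKM. *Fcer1g*, an adaptor chain also used by mast and myeloid cells, was at 0.427, 0.751 and 0.580 FPKM against 0.252, 0.352 and 0.407 FPKM. The genotypes were separate in all 3, by a narrow gap for *Jaml* and *Fcer1g*, and the adjusted p in limma was 0.198, 0.277 and 0.333. *Klrd1* (CD94) was at 1.38, 0.674 and 1.80 FPKM against 0.858, 0.979 and 0.956 FPKM, so that its *Zfp90* ΔIEC samples lay inside the *Zfp90* fl/fl range. *Klrk1* (NKG2D), which binds stress ligands, was at 0.0473 to 0.184 FPKM in the *Zfp90* fl/fl samples. Its *Zfp90* ΔIEC samples also lay inside the *Zfp90* fl/fl range, at 0.0834 to 0.1001 FPKM. *Cd244a*, a receptor of the SLAM family, ran from 0.128 to 0.294 FPKM in the *Zfp90* fl/fl samples. In the *Zfp90* ΔIEC samples it ran from 0.0601 to 0.172 FPKM, with overlap. Genes of the killer lectin-like family resemble each other, and reads shared between them could be split.

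**Figure D2:**
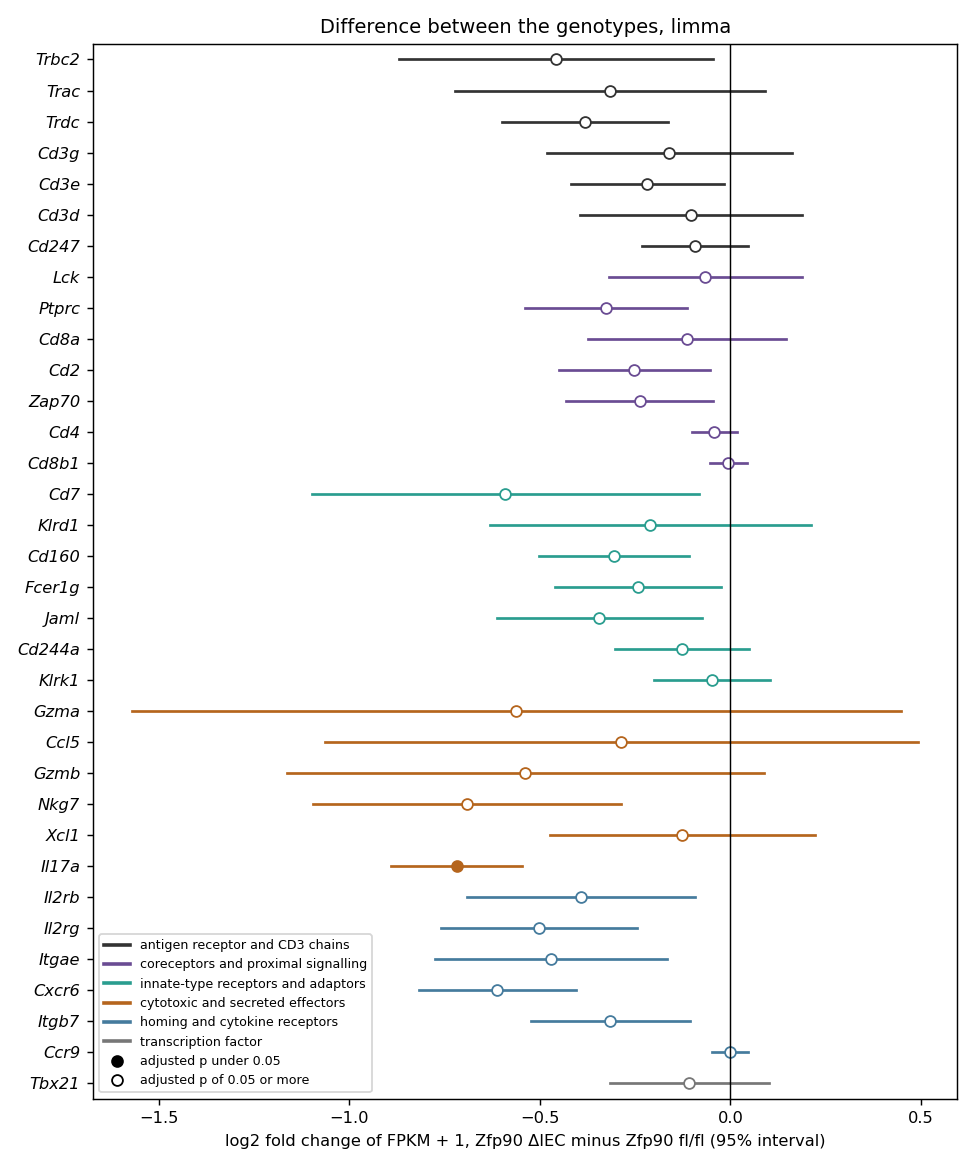
Log2 fold change of FPKM + 1 between the genotypes for each gene, with the 95% interval from limma; negative values are lower in the *Zfp90* ΔIEC mice and a filled point marks an adjusted p under 0.05. *Il17a* is the 1 filled point, at -0.72, while *Gzma* has the widest interval, from -1.57 to 0.45, and *Lck* sits near 0; *Cd4*, *Cd8b1* and *Ccr9* come from the fit without the filter.

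The 6 effector genes held the largest difference and also the widest spread. *Il17a* encodes the cytokine IL-17A, which γδ T cells and T helper 17 cells make and which draws neutrophils (ENSMUSG00000025929, chromosome 1, 20730905 to 20734496, plus strand). It was at 0.628, 0.826 and 0.787 FPKM in the *Zfp90* fl/fl samples and at 0.0939, 0.0894 and 0 FPKM across the *Zfp90* ΔIEC samples. The lowest *Zfp90* fl/fl sample lay far above the highest *Zfp90* ΔIEC sample. Estimated fragments were 18.9, 27.1 and 25.9 against 3.0, 3.0 and 0.0, so the *Zfp90* ΔIEC level, at 8.14% of the *Zfp90* fl/fl level, rests on 6 fragments in all (95% counting interval 2.89% to 18.6%). *Il17a* fell by 0.72 on the scale of log2(FPKM + 1) (SE 0.0727, adjusted p = 0.0274, limma). The call was close to the threshold. Without *Zfp90* fl/fl replicate 1 it held. It was lost without *Zfp90* fl/fl replicate 2 (adjusted p = 0.0888 from limma) or 3 (0.0797) and without *Zfp90* ΔIEC replicate 1 (0.0672), 2 (0.0827) or 3 (0.0768), as well as with a pseudocount of 0.1 (0.0604) and without the filter (0.0589), and over all alternatives the adjusted p ran from 0.0274 to 0.0888. In the order of means *Il17a* went from number 14 of 34 to number 31.

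The window before the *Il17a* start, chr1:20730655-20730904 on the plus strand, held TGTGGT and AGGTCA, both on the other strand, so that their reverse complements stand in capitals:
Il17a: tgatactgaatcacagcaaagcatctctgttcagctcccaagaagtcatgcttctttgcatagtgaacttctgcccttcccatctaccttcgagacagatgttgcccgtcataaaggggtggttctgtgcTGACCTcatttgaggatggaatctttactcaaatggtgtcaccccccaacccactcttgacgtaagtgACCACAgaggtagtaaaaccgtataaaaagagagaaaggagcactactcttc
Its relatives *Il17f* and *Il22*, which were named after their values were seen, were at or under 0.111 FPKM in every sample and below the filter.

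*Nkg7*, a protein of cytotoxic granules (chromosome 7, 43437073 to 43438249), was at 1.49, 0.874 and 1.78 FPKM in the *Zfp90* fl/fl samples and at 0.235, 0.495 and 0.666 FPKM across the *Zfp90* ΔIEC samples. The genotypes were separate, with a log2 fold change of -0.69 (SE 0.171, adjusted p = 0.162, limma). The granzymes, the proteases that cytotoxic cells release into their targets, were not separate. *Gzma* was at 2.02, 0.918 and 6.06 FPKM against 1.57, 1.14 and 1.31 FPKM, and *Gzmb* at 1.49, 0.790 and 2.65 FPKM against 1.19, 0.508 and 0.607 FPKM. For both, *Zfp90* fl/fl replicate 3 stood well above the other samples and replicate 2 lay among or below the *Zfp90* ΔIEC samples. The log2 fold change of *Gzma* was -0.56 (95% interval -1.57 to 0.45, adjusted p = 0.630 from limma), and -0.04 without *Zfp90* fl/fl replicate 3. That of *Gzmb* was -0.54 (95% interval -1.16 to 0.09, adjusted p = 0.445 from limma).

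The chemokines of the list did not separate the genotypes either. *Ccl5*, which draws T cells, was at 1.33, 0.694 and 3.56 FPKM in the *Zfp90* fl/fl samples and at 0.960, 1.16 and 1.34 FPKM across the *Zfp90* ΔIEC samples, and its log2 fold change of -0.29 became 0.11 without *Zfp90* fl/fl replicate 3. *Xcl1*, which draws cross-presenting dendritic cells, was at 0.959, 1.02 and 1.08 FPKM against 0.940, 0.467 and 1.218 FPKM. Its log2 fold change of -0.13 became 0.04 without *Zfp90* ΔIEC replicate 2, the 1 low sample. Of the 6 effectors, 1 passed the threshold and 2 had an unadjusted p under 0.05.

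Of the 6 homing and cytokine receptors, 5 had no overlap and were lower in the *Zfp90* ΔIEC samples, where 11.9% of all genes tested were. Of the 5 that were tested, 0 passed the threshold in limma and 5 had an unadjusted p under 0.05, against 7.59% of all genes that were lower at this p. *Cxcr6*, the chemokine receptor of resident T and NK cells, which binds CXCL16 (ENSMUSG00000048521, chromosome 9, 123806475 to 123811760, plus strand), was at 0.873, 0.534 and 0.768 FPKM in the *Zfp90* fl/fl samples and at 0.0759, 0.162 and 0.139 FPKM across the *Zfp90* ΔIEC samples. Every *Zfp90* fl/fl sample was far above every *Zfp90* ΔIEC sample, and the mean of the *Zfp90* ΔIEC mice was lower by 82.7%. The log2 fold change was -0.61 (SE 0.0875, adjusted p = 0.0718, limma), short of the threshold, and over all alternatives the adjusted p ran from 0.0640 to 0.185. Its window, chr9:123806227-123806476 on the plus strand, held TGTGGT on the other strand close to the start site:
Cxcr6: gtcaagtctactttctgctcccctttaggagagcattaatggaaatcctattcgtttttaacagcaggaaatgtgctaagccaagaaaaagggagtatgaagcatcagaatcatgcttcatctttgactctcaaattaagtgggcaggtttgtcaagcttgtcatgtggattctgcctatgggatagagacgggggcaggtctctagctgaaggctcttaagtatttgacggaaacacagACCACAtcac

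*Itgae*, the αE chain (CD103) of the integrin that binds E-cadherin (chromosome 11, 73090583 to 73147446), was at 1.13, 0.621 and 1.01 FPKM in the *Zfp90* fl/fl samples and at 0.228, 0.377 and 0.543 FPKM across the *Zfp90* ΔIEC samples. *Itgb7*, its β7 partner, was at 0.570, 0.520 and 0.756 FPKM against 0.196, 0.293 and 0.405 FPKM. Both chains were thus lower in each *Zfp90* ΔIEC sample than in any *Zfp90* fl/fl sample, with log2 fold changes of -0.47 and -0.32 and adjusted p of 0.200 and 0.209 in limma.

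*Il2rb* and *Il2rg* form the receptor through which IL-15 keeps intraepithelial lymphocytes alive, and *Il2rg* also serves other cytokine receptors of leukocytes. *Il2rg* (chromosome X, 101264378 to 101268255) was at 1.34, 0.927 and 1.38 FPKM in the *Zfp90* fl/fl samples and at 0.452, 0.522 and 0.712 FPKM across the *Zfp90* ΔIEC samples. *Il2rb* (chromosome 15, 78479256 to 78495271) was at 1.44, 1.05 and 1.33 FPKM against 0.463, 0.774 and 0.978 FPKM. The genotypes were separate for both, with adjusted p of 0.135 and 0.266 in limma. *Ccr9*, the receptor for the gut chemokine CCL25, was near 0, at 0.0450 to 0.0726 FPKM in the *Zfp90* fl/fl samples against 0.0428 to 0.0773 FPKM across the *Zfp90* ΔIEC samples. *Ccr9* shares exon positions with *Gm17200* on the same strand, which was at 0.0593 and 0.0826 FPKM in the means. It also shares them with *Slc6a20a* on the opposite strand, at 1.5 and 1.03 FPKM, so its few reads may not all be its own. *Tbx21* (T-bet), the transcription factor of cytotoxic and interferon-producing lymphocytes, lay at 0.311, 0.0571 and 0.171 FPKM against 0.0515, 0.0771 and 0.144 FPKM, with overlap and an adjusted p of 0.657 in limma.

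**Figure D3:**
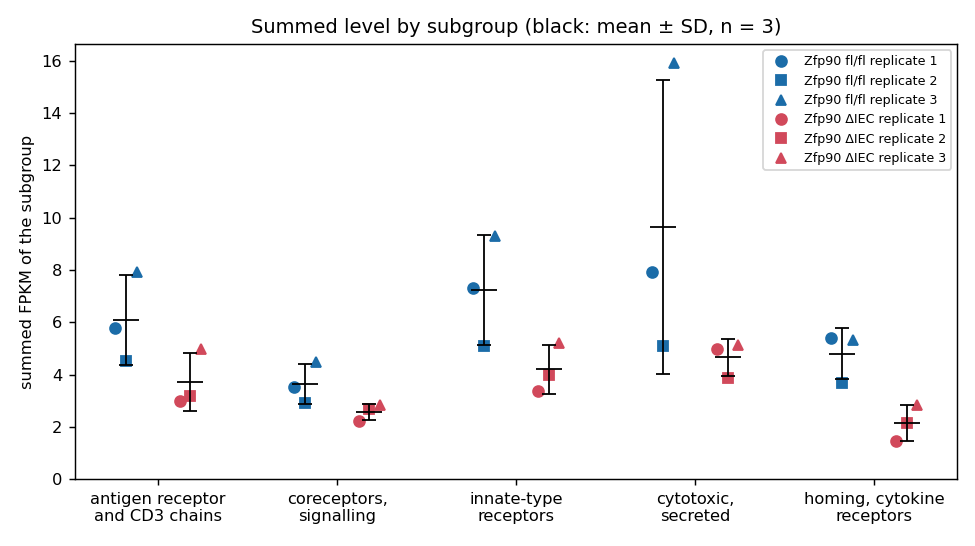
Summed FPKM of each subgroup in each sample, with the mean and SD (n = 3) of each genotype in black. The homing and cytokine receptors and the coreceptors do not overlap between the genotypes, while in the effectors *Zfp90* fl/fl replicate 3, at 15.9 FPKM, stands far above the rest.

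By subgroup, the summed level of the homing and cytokine receptors went from 4.81 ± 0.965 FPKM in the *Zfp90* fl/fl mice to 2.16 ± 0.698 FPKM across the *Zfp90* ΔIEC mice (SD, n = 3 each), or 45.0%. The effectors were at 9.65 ± 5.61 FPKM and 4.66 ± 0.700 FPKM, or 48.3%, with overlap. The innate-type receptors stood at 58.1%, the receptor and CD3 chains at 61.3%, both with overlap, and the coreceptors and kinases at 70.9% without overlap. Within the total of the 34 genes, homing and cytokine receptors took 15.8% ± 3.02 and 12.2% ± 2.25, and receptor and CD3 chains 19.6% ± 1.44 and 21.1% ± 2.11 (SD, n = 3 each), and both shares overlapped between the genotypes. The median log2 fold change over the genes that passed the filter was -0.47 for 5 homing and cytokine receptors, -0.55 for 6 effectors, -0.24 for 7 innate-type receptors, -0.22 for 7 receptor and CD3 chains and -0.24 for 5 coreceptors and kinases. With the genes below the filter it was -0.43 for the homing and cytokine receptors and -0.11 for the coreceptors and kinases.

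Levels were also set against the summed CD3 chains of the same sample, as a level relative to T cell receptor signal. In this ratio 6 of the 34 genes were lower without overlap in the *Zfp90* ΔIEC mice, *Il17a*, *Cxcr6*, *Nkg7*, *Itgae*, *Itgb7* and *Cd2*, where 0.729% of all genes tested were, and 1, *Ccr9*, was higher, where 6.54% of all genes were. The other 27 overlapped, among them the 4 CD3 chains that form the divisor. The summed CD3 chains of the *Zfp90* ΔIEC mice were at 62.5% of the *Zfp90* fl/fl mean, so dividing by them raises the ratio of an unchanged gene. Both shares over all genes are shifted by this, and the 6 genes cannot be judged against them. *Ccr9* was at 0.0572 and 0.0557 FPKM in the means before the division. *Il17a* was at 0.475, 0.913 and 0.379 times the CD3 chains in the *Zfp90* fl/fl samples and at 0.145, 0.110 and 0 times in the *Zfp90* ΔIEC samples. *Cxcr6* was at 0.660, 0.591 and 0.370 times against 0.117, 0.199 and 0.113 times. For both, the lowest *Zfp90* fl/fl sample was replicate 3, which had the most CD3 RNA. The gap was narrow for *Itgb7* and *Cd2*, whose nearest samples were at 0.364 and 0.361 times, and at 0.232 and 0.228 times. The ratio of *Lck* was 1.03, 1.65 and 0.929 against 1.96, 2.05 and 1.21, with overlap, and that of *Trbc2* was 1.66 ± 0.189 against 1.60 ± 0.367 (SD, n = 3 each).

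**Figure D4:**
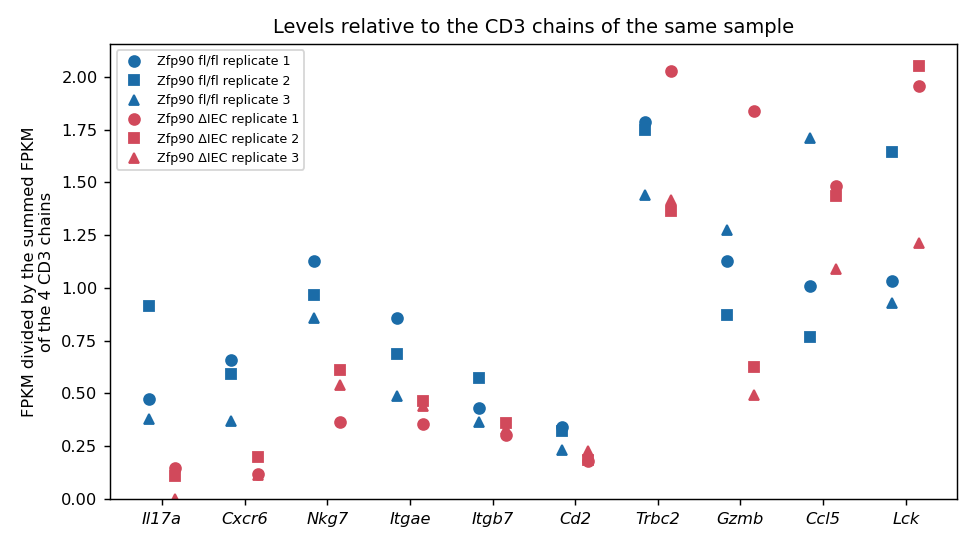
FPKM of 10 of the lymphocyte genes divided by the summed FPKM of the 4 CD3 chains in the same sample, for each sample. The 6 genes on the left are the ones whose *Zfp90* ΔIEC points all lie below the *Zfp90* fl/fl points, and *Trbc2*, *Gzmb*, *Ccl5* and *Lck* on the right overlap.

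A second list held 72 other T and NK cell genes, of which 70 were measured and 43 tested. Its median log2 fold change was -0.19, 61 of the 70 had a lower mean in the *Zfp90* ΔIEC mice (56% of all genes tested), 24 had no overlap with the *Zfp90* ΔIEC samples lower (11.9% of all genes) and 0 with them higher (8.05%). Of the 43, 17 had an unadjusted p under 0.05 (13.3% of all genes) and 1 passed the threshold. *Tcrg-C1*, a constant part of the γ chain (ENSMUSG00000076749), was at 2.27, 1.84 and 2.61 FPKM in the *Zfp90* fl/fl samples and at 0.718, 0.530 and 0.779 FPKM across the *Zfp90* ΔIEC samples. Both sets of values were far apart, and *Tcrg-C1* fell by 0.95 on the log2 scale (SE 0.109, adjusted p = 0.0420, limma). This call was lost when any 1 of the 6 samples was left out, with an adjusted p of 0.0589 to 0.126 in limma, and without the filter (0.123). The γ constant genes resemble each other, so reads may be split between them. *Tcrg-C2* and *Tcrg-C4*, named after their values were seen, were at 1.12 ± 0.267 and 1.07 ± 0.526 FPKM in the *Zfp90* fl/fl mice and 0.989 ± 0.0354 and 0.652 ± 0.148 FPKM across the *Zfp90* ΔIEC mice (SD, n = 3 each), with overlap. The sum of the 3 γ genes was at 4.61, 3.22 and 5.46 FPKM against 2.21, 2.26 and 2.48 FPKM, without overlap, or 52.3% in the means.

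Epithelial cells carry the ligands of many of these receptors, and a list of 35 partner genes was compared. Not all of them are ligands, and some are also expressed by other cells. Of the 30 tested, 0 passed the threshold in limma and 12 had an unadjusted p under 0.05, against 13.3% of all genes. The means of 18 were lower and of 16 higher, 7 of 35 had no overlap with the *Zfp90* ΔIEC samples lower and 5 with them higher (11.9% and 8.05% of all genes), and the median log2 fold change was 0.02. *Cdh1*, the E-cadherin bound by αEβ7, was at 244, 262 and 245 FPKM in the *Zfp90* fl/fl samples and at 254, 247 and 247 FPKM across the *Zfp90* ΔIEC samples, which overlapped. Its log2 fold change had a 95% interval of -0.13 to 0.12. *Il18*, a cytokine that stimulates lymphocytes, was at 75.1, 78.5 and 97.1 FPKM against 70.0, 65.4 and 81.1 FPKM.

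Ligands of single receptors of the list, and the other partner genes named here, were named after their values were seen. The 7 that were lower without overlap, beside 5 higher, were *Ccl28*, *Ccl20*, *Cd48*, *Il15ra*, *Cd1d1*, *Icam1* and *Ahr*. *Ccl28* was at 46.9 ± 1.31 FPKM in the *Zfp90* fl/fl mice and 29.2 ± 7.43 FPKM across the *Zfp90* ΔIEC mice (SD, n = 3 each). In the same order, *Ccl20* was at 4.29 ± 1.03 and 2.04 ± 0.672 FPKM, and *Cd48* at 0.579 ± 0.101 and 0.234 ± 0.0795 FPKM. *Cxcl16*, the ligand of *Cxcr6*, was at 6.07, 6.86 and 6.44 FPKM in the *Zfp90* fl/fl samples and at 4.91, 5.46 and 6.39 FPKM across the *Zfp90* ΔIEC samples, with overlap. *Il15*, which signals through *Il2rb* and *Il2rg*, was at 3.34, 4.35 and 3.87 FPKM against 4.44, 4.57 and 5.50 FPKM. It was thus higher in each *Zfp90* ΔIEC sample, with an adjusted p of 0.352 in limma. *Ccl25*, the ligand of *Ccr9*, was also higher without overlap, at 0.531 ± 0.0412 against 0.782 ± 0.0424 FPKM (SD, n = 3 each), with an adjusted p of 0.207 in limma. *Cxadr*, the ligand of *Jaml*, was at 41.0 ± 1.66 and 42.4 ± 2.22 FPKM, and *Tnfrsf14* (HVEM), the ligand of *Cd160*, at 5.04 ± 0.958 and 5.15 ± 1.70 FPKM (SD, n = 3 each). Both overlapped. *Btnl1* and *Btnl6*, butyrophilin-like proteins that maintain γδ intraepithelial T cells, were at 30.2 ± 0.585 and 28.7 ± 4.02 FPKM in the *Zfp90* fl/fl mice and 35.1 ± 2.997 and 30.6 ± 4.37 FPKM across the *Zfp90* ΔIEC mice (SD, n = 3 each), *Btnl1* higher without overlap and *Btnl6* with overlap.

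Markers of other cells moved as well, and their part in the values above was not tested. All 13 macrophage and dendritic cell markers had a lower mean in the *Zfp90* ΔIEC mice, 9 of them without overlap (56% and 11.9% of all genes tested), and their sum, mostly *Cd14*, lay between 33.8 and 39.2 FPKM in the *Zfp90* fl/fl samples and between 17.8 and 20.1 FPKM across the *Zfp90* ΔIEC samples. Without *Cd14* the sum was at 10.0 ± 1.56 and 4.35 ± 0.74 FPKM (SD, n = 3 each). Which cells the *Cd14* RNA came from was not tested. *Itgam* (CD11b) fell from 0.960 ± 0.0420 to 0.154 ± 0.0242 FPKM and *Cd14* from 26.3 ± 1.54 to 14.2 ± 1.29 FPKM (SD, n = 3 each, adjusted p = 0.00996 and 0.0237 from limma). The call of *Itgam* was lost without replicate 2 of either genotype (adjusted p = 0.0531 and 0.0540 from limma), and that of *Cd14* without *Zfp90* fl/fl replicate 2 or 3 or *Zfp90* ΔIEC replicate 1 or 2 (from 0.0540 to 0.0837) and without the filter (0.0597). Of 9 mast cell markers, 8 had a lower mean, 3 of them without overlap, and their sum lay between 18.1 and 26.2 FPKM and between 5.63 and 10.1 FPKM. *Mcpt1* and *Mcpt2*, proteases of mucosal mast cells, fell from 11.3 ± 2.63 to 0.787 ± 0.235 FPKM and from 5.32 ± 1.14 to 0.288 ± 0.0634 FPKM (SD, n = 3 each, adjusted p = 0.004 for both from limma). No marker of the macrophage list was at 0 in all samples of a genotype, and 1 of the mast cell list was at 0 in all *Zfp90* ΔIEC samples. *Zfp90* fl/fl replicate 3, which had the highest lymphocyte sum, had the middle macrophage sum of its genotype, the lowest such sum without *Cd14* (9.08 FPKM, against 9.21 and 11.9 FPKM in replicates 1 and 2) and the lowest mast cell sum.

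The sums of the remaining lists were not lower without overlap, although single markers were. For neutrophils and for B and plasma cells the sum was mostly 1 gene that overlapped. *Ly6g* was at 31.1 ± 11.8 and 26.8 ± 5.62 FPKM, and *Xbp1* at 56.7 ± 6.05 and 59.1 ± 7.06 FPKM (SD, n = 3 each). Such a sum says little about the other markers of its list. Of 10 neutrophil markers 7 had a lower mean and 5 were lower without overlap. Of 13 B and plasma cell markers 11 had a lower mean and 5 were lower without overlap. The shares of all genes tested were 56% and 11.9%. In either list 0 were higher without overlap, where 8.05% of all genes tested were. Neutrophil markers summed to between 25.3 and 47.2 FPKM in the *Zfp90* fl/fl samples and between 21.9 and 33.0 FPKM across the *Zfp90* ΔIEC samples, mostly *Ly6g*, while *S100a9* was at 0.476 to 1.62 FPKM and listed at 0 in all 3 *Zfp90* ΔIEC samples. The highest neutrophil sum, like the highest lymphocyte sum, was that of *Zfp90* fl/fl replicate 3. B and plasma cell markers summed to 64.9 ± 7.84 and 61.9 ± 7.05 FPKM (SD, n = 3 each), mostly *Xbp1*, which epithelial cells also express. *Igkc* was lower without overlap, at 4.02 ± 1.14 and 1.07 ± 0.410 FPKM. Stromal and endothelial markers summed to 1.90 ± 0.288 and 1.93 ± 0.517 FPKM (SD, n = 3 each), with *Vim* as the highest and *Pecam1*, at 0.257 ± 0.0577 and 0.458 ± 0.0357 FPKM, higher without overlap. Epithelial markers summed to 11710 ± 1222 FPKM and 15034 ± 1989 FPKM (SD, n = 3 each), higher without overlap in the *Zfp90* ΔIEC samples. Of these 13 markers 4 were higher without overlap and 0 lower (8.05% and 11.9% of all genes tested). *Car1*, at 4706 ± 826 and 7871 ± 1942 FPKM, made up the largest part, while *Krt8* was at 2897 ± 185 and 2823 ± 163 FPKM (SD, n = 3 each). In limma, of the 26 genes tested in these 4 lists 0 passed the threshold and 11 had an unadjusted p under 0.05, against 13.3% of all genes.

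**Figure D5:**
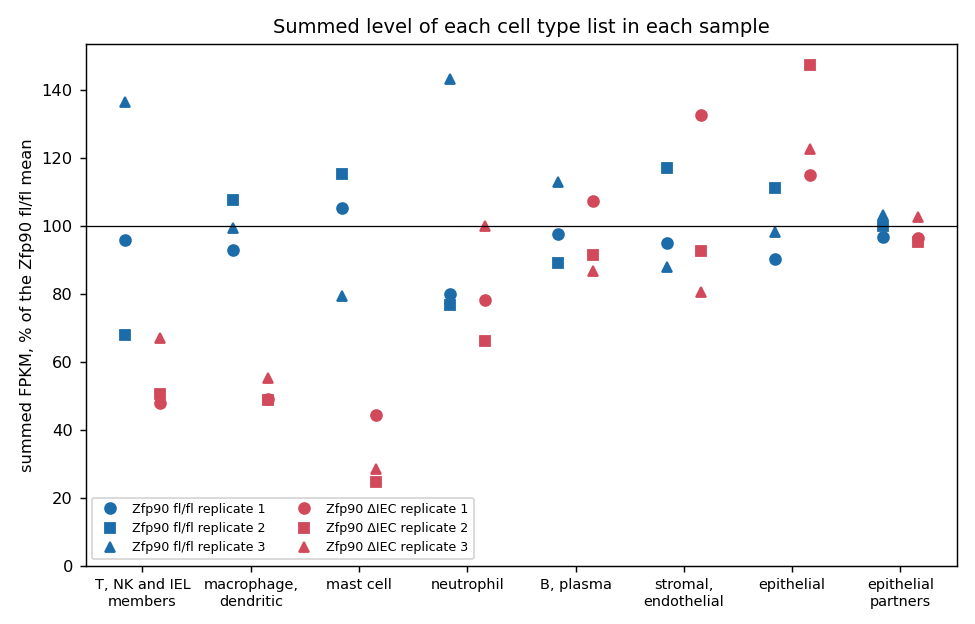
Summed FPKM of each list of cell type genes in each sample, as a percentage of the mean of the 3 *Zfp90* fl/fl samples. The lymphocyte genes, the macrophage and dendritic cell markers and the mast cell markers lie lower in every *Zfp90* ΔIEC sample than in any *Zfp90* fl/fl sample, the epithelial markers lie higher, and the other lists overlap. The neutrophil sum is mostly *Ly6g* and the B and plasma cell sum mostly *Xbp1*, and these sums say little about the other markers.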

How the data were processed

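RNA of colon epithelium was sequenced in 3 *Zfp90* fl/fl and 3 *Zfp90* ΔIEC samples. The authors deposited 1 file per sample with an FPKM for each of 52550 genes. Their processing is given differently in the paper, which names TopHat and Cuffdiff with a human build, and in the submitters' processing notes, which name STAR 2.5, Cuffnorm, DESeq 1.22.1 and mouse build mm9. The files hold mouse Ensembl identifiers. The libraries were strand-specific. For 2 *Zfp90* ΔIEC samples the genotype field names a gene with another number, and the titles were used for grouping.

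Symbols, positions and overlaps were taken from GENCODE on GRCm38, which matched 52403 identifiers and left 147 without a symbol. Promoter windows were taken from RefSeq on GRCm38.p6. The scale of analysis was log2(FPKM + 1). Genes with a mean of at least 0.1 FPKM over all 6 samples were fitted with limma 3.58.1 (intensity trend) in R 4.3.3, with Benjamini-Hochberg adjustment over 17013 genes and a threshold of 0.05. Genes below the filter were read from the same fit without it. The scripts were tested on simulated data. Intervals of fragment ratios are exact at 95%.

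Depth was estimated from the steps between low values of genes with a single transcript. Of the values examined, 53.6% to 57.5% lay within 0.1 of a whole step, so the estimate is rough and fragment numbers are approximate. Tables used Python 3.11.15 with pandas 2.3.3, and figures matplotlib 3.10.9.

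The ratio to the CD3 chains and the sums of β and of γ chain genes were added after values were seen. The 34 genes and the other lists were chosen with earlier results of these data known. All 34 are named. From each other list the called genes are named, or, with none called, the 2 of highest mean FPKM, and any other gene named is said to have been chosen after its values were seen. Alternatives were a pseudocount of 0.1, no filter, a filter of 1 FPKM in 3 samples, quantile normalization, median ratio scaling, the replicate number as a block, leaving out each sample, a threshold of 0.1 and, for the sum, leaving out the 3 highest genes.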

Additional observations from a re-analysis of the deposited data

How the results depend on the processing

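The pseudocount, the filter, the scaling, the threshold and single samples were changed 1 at a time. The number of genes called, 30 (22 lower, 8 higher), was 15 without the filter, 14 with the replicate number as a block, 160 at an adjusted p under 0.1 and from 9 to 22 with 1 sample left out. Of the 34 lymphocyte genes, 1 was called. With a pseudocount of 0.1, without the filter, with the filter of 1 FPKM in 3 samples and with the block, 0 were called. At an unadjusted p under 0.05 in limma there were 17 of 31 tested, 16 of 34, 3 of 9 and 18 of 31. The share of all genes with such a p is given here for the main fit only (13.3%), so these counts describe the list alone. The filter of 1 FPKM left out *Il17a*, which stayed under 1 FPKM in every sample, so its call could not arise there. At an adjusted p under 0.1, 2 were called, and 0 to 1 were with 1 sample left out. The adjusted p of *Il17a* was 0.0604 with a pseudocount of 0.1, 0.0589 without the filter and 0.0794 with the block, and its log2 fold change stayed between -2.45 and -0.68. The pseudocount of 0.1 moved the median log2 fold change of the list to -0.73, and with 1 sample left out it ran from -0.38 to -0.22. Genes without overlap numbered 15 to 25 with 1 sample left out, when fewer samples have to be separate. The 25 arose without *Zfp90* fl/fl replicate 2, where the share over all genes tested was 16.8%. That share is not given for the other samples left out. The log2 ratio of the summed FPKM, -0.86, ran from -1.07 to -0.57 with 1 sample left out and was -0.84 without *Cd7*, *Gzma* and *Trbc2*. With 1 sample left out, the log2 fold change ran from -0.21 to 0.0267 for *Cd3d*, from -0.13 to 0.0249 for *Lck* and from -0.60 to 0.11 for *Ccl5*, each reversed without *Zfp90* fl/fl replicate 3, and from -0.26 to 0.0401 for *Xcl1*, reversed without *Zfp90* ΔIEC replicate 2. Over the single genes of the list, 338 of the alternative values kept direction and side of the threshold, 8 lost the threshold, all for *Il17a*, and 4 reversed. Samples of the same replicate number deviated together with correlations of 0.167, 0.113 and 0.073, so the number was not taken as a pairing, although each sample correlated best with its own number. With the block, 11 of its 14 called genes were among the 30, and the adjusted p of *Tcrg-C1* was 0.0555, of *Itgam* 0.0580 and of *Cd14* 0.0622. At this depth many of the lymphocyte genes rest on few fragments per sample, from 0.0 to 107.0 for the 7 with a single transcript, and a 0 may stand for a low level. The causes of these shifts were not tested.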

Other observations

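Some T cell genes outside the list of 34 were looked up after their values were seen. *Icos*, a costimulatory receptor of activated T cells, lay at 0.379, 0.332 and 0.330 FPKM in the *Zfp90* fl/fl samples and at 0.0588, 0.1001 and 0.104 FPKM across the *Zfp90* ΔIEC samples, without overlap and with an adjusted p of 0.0901 in limma. *Ctla4*, an inhibitory receptor, was at 0.534 ± 0.0965 and 0.289 ± 0.0536 FPKM (SD, n = 3 each), also without overlap (adjusted p = 0.219 from limma). *Foxp3*, the factor of regulatory T cells, stayed at or under 0.0660 FPKM in every sample. Of the killing machinery beyond the granzymes of the list, perforin (*Prf1*) lay between 0.0135 and 0.0300 FPKM and overlapped, and *Gzmk* was listed at 0 in all 6 samples.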
